A study of Mus musculus with 18 samples.

Results

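The 32 genes described here encode the enzymes of the tricarboxylic acid (TCA) cycle, the pyruvate dehydrogenase complex with its regulatory kinases, the mitochondrial pyruvate carrier, pyruvate carboxylase and the aspartate aminotransferases of the malate-aspartate shuttle. They were listed by name and function, without a threshold on any measured value, and each was read from the probe set of highest mean signal that the array's annotation gives to it alone. Of the 32 genes, 31 were measured above the limit set on low signal, out of 12610 genes measured in all. *Mpc2*, the partner of *Mpc1* in the pyruvate carrier, had no probe set in the annotation used and is not analysed here.

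RNA from the cardiac ventricles of 18 male mice was hybridised to 1 Affymetrix array each. The strain is labelled CR7BL6, and the labels give 10 weeks as the age in every group, without saying whether at tamoxifen or at sacrifice. Serum response factor (SRF), a transcription factor of muscle and cytoskeletal genes, was deleted in SRFHKO hearts after tamoxifen, and 4 SRFHKO and 2 control hearts were taken at day 8 after the injections. At day 25 there were 3 SRFHKO and 3 control hearts that had received phenylephrine (PE), which stimulates alpha-1 adrenergic receptors, and 3 SRFHKO and 3 control hearts without it. Every mouse, the controls included, was given 0.7 mg of tamoxifen for 3 days. Controls were littermates with the SRF-flex2neo allele, and no source used here names the promoter that drives Cre. No group is labelled as Cre with intact *Srf*, so effects of Cre and of the deletion cannot be told apart. PE came from an osmotic minipump, with a daily dose of 80 mg/kg begun at day 10 and kept up until day 25.

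The TCA cycle oxidises acetyl groups to carbon dioxide in the mitochondrial matrix and passes the electrons to the respiratory chain as NADH and, through succinate dehydrogenase, directly to ubiquinone. Pyruvate dehydrogenase feeds the cycle with acetyl groups from glucose and lactate, and pyruvate dehydrogenase kinases switch it off by phosphorylation. Heart muscle, which makes nearly all its ATP by oxidation, carries these enzymes at high levels, and the malate-aspartate shuttle brings cytosolic reducing equivalents into its mitochondria.

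Levels below are log2 of the signal plus a pseudocount of 2, after each array was scaled to a common 2% trimmed mean, and they compare hearts for 1 gene, not 1 gene with another. Before scaling, the trimmed means were 71.2 to 83.5 on SRFHKO arrays and 46.6 to 68.5 on control arrays at day 25, and 75.9 to 85.4 against 52.5 to 75.3 with PE. The groups of each pair did not overlap. *Srf* lay between 7.16 and 7.63 in SRFHKO and between 7.37 and 7.66 in control hearts at day 25. No source used here places its probe set relative to the deleted part, so it checks nothing about the genotypes. All 16 cardiomyocyte markers examined were above the limit on low signal in these ventricles. The members were bright and tight: 27 of 31 ranked in the top 10% of genes by mean level, and the median standard deviation within groups was 0.126 for the members and 0.251 over all genes.

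The 250 bases before a RefSeq start site (build GRCm38.p6) are shown for the 4 members that fell in SRFHKO hearts under PE, since all 4 were called there. *Pdk2* has another RefSeq start site, whose window is not shown. *Got1* interconverts aspartate and oxaloacetate in the cytosol, *Suclg1* is the alpha subunit of succinyl-CoA ligase, *Cs* is citrate synthase and *Pdk2* is a pyruvate dehydrogenase kinase. Capitals mark AAGGTCA, the core letters, not the whole, of the recognition sequence of estrogen-related receptors, which control many genes of oxidative metabolism.
Got1 (chr19:43524606-43524855, minus strand): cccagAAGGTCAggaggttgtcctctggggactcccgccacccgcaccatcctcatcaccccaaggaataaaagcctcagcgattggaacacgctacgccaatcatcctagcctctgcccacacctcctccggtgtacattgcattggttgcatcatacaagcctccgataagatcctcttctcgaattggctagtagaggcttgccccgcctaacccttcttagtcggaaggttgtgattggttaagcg
Suclg1 (chr6:73248255-73248504, plus strand): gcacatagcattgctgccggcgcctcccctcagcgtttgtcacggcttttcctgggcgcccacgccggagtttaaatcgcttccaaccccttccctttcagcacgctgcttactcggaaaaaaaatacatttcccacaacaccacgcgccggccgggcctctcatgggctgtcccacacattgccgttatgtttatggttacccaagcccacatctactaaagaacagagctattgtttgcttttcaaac
Cs (chr10:128337477-128337726, plus strand): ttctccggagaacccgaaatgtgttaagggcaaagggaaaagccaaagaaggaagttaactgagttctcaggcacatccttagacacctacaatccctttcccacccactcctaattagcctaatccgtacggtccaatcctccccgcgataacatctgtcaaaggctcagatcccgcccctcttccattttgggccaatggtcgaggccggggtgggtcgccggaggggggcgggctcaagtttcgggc
Pdk2 (chr11:95041372-95041621, minus strand): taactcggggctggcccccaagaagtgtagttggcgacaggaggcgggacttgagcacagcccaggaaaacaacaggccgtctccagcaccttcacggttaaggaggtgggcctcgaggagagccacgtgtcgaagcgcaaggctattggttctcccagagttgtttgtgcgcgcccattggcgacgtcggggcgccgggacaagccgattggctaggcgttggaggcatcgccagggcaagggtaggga
Of the 32 genes, 30 matched the RefSeq promoter table, with 40 promoters. AAGGTCA, searched on both strands, was found in 1 of these 40 windows (2.5%), that of *Got1*, 245 bases before the start, against 1340 of 32851 promoters of the same length (4.079%). The CArG box, the SRF recognition sequence, was in 0 of 40, against 482 of 32851 (1.467%), and no match says only that these letters are not in this window. The windows of the members had a median GC content of 61.4%, against 52.4% over all promoters.

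Of the 5 pairwise comparisons, deletion under PE had the most members below 0. In it, 29 of 31 were lower in SRFHKO hearts given PE than in control hearts given PE, where 50.5% of all genes lay below 0, and the median difference was -0.29 on the log2 scale for the members and -0.00 over all genes. In 23 members the 3 SRFHKO hearts all lay below the 3 control hearts (all genes: 10.5%), and in none did they all lie above. After adjustment over the 12610 genes with limma, 4 members fell (*Suclg1*, *Got1*, *Cs* and *Pdk2*) and none rose, against 0.944% of all genes called lower and 1.66% called in either direction. At an unadjusted p under 0.05 the count was 20 of 31, against 7.59% of all genes. Since the members were chosen with results of these data known, these shares are a description and carry no test of the list. Among the 1261 brightest genes (the top 10% by mean level), 60.4% lay below 0 with a median of -0.06, and 4.36% were called lower. Of these brightest genes, 20.9% had an unadjusted p under 0.05 on the lower side. With quantile normalisation 12 of 31 members had such a p. Leaving out single hearts gave 1 to 5 calls: 1 without the control +PE replicate 1 or 3 or the SRFHKO +PE replicate 2, and 5 without the SRFHKO +PE replicate 3. *Suclg1* passed in 6 of the 6 such fits, *Cs* and *Got1* in 3 and *Pdk2* in 1. Without scaling of the arrays no member was called, and the median became 0.0156 with 14 of 31 below 0, where all genes had a median of 0.29. For 20 members the annotation gives further probe sets, and 27 of these 31 had the sign of the probe set used.

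Deletion without PE at day 25 gave 5 calls among the members. *Pdk2*, *Got2*, *Cs*, *Sdhb* and *Suclg1* fell in SRFHKO hearts, none rose, and 1.21% of all genes were called lower and 2.48% in either direction. Of 31 members 25 were below 0 (55.8% of all genes), 13 had an unadjusted p under 0.05 on the lower side (10.2% of all genes), and 12 had groups that did not overlap (12.6% of all genes). The median difference was -0.14 for the members and -0.05 over all genes. The 1261 brightest genes had a median of -0.02, and 4.2% of them were called lower. Of these brightest genes, 18.9% had an unadjusted p under 0.05 on the lower side. With quantile normalisation 9 of 31 members had such a p. *Cs*, *Suclg1* and *Pdk2* passed the threshold both with and without PE, in different hearts. Leaving out single hearts gave 0 calls (without the control or the SRFHKO replicate 3), 1 (without the SRFHKO replicate 2), 3 (without the control replicate 1) and up to 6 (without the SRFHKO replicate 1, where the median was -0.26). *Pdk2* passed in 4 of the 6 fits, *Cs* and *Got2* in 3, *Sdhb* in 2 and *Suclg1* in 0, and quantile normalisation left 2 calls, *Pdk2* and *Got2*. No member was called when the SRFHKO and control groups were fitted alone, nor without scaling, where the direction turned: the median became 0.27 with 4 of 31 below 0, and that of all genes 0.35. Of the 31 further probe sets, 17 had the sign of the probe set used. With all probe sets of a gene averaged, 4 members were called (*Suclg1*, *Sdhb*, *Mdh2* and *Pdk2*) and 9 had an unadjusted p under 0.05 on the lower side.

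**Figure D1:**
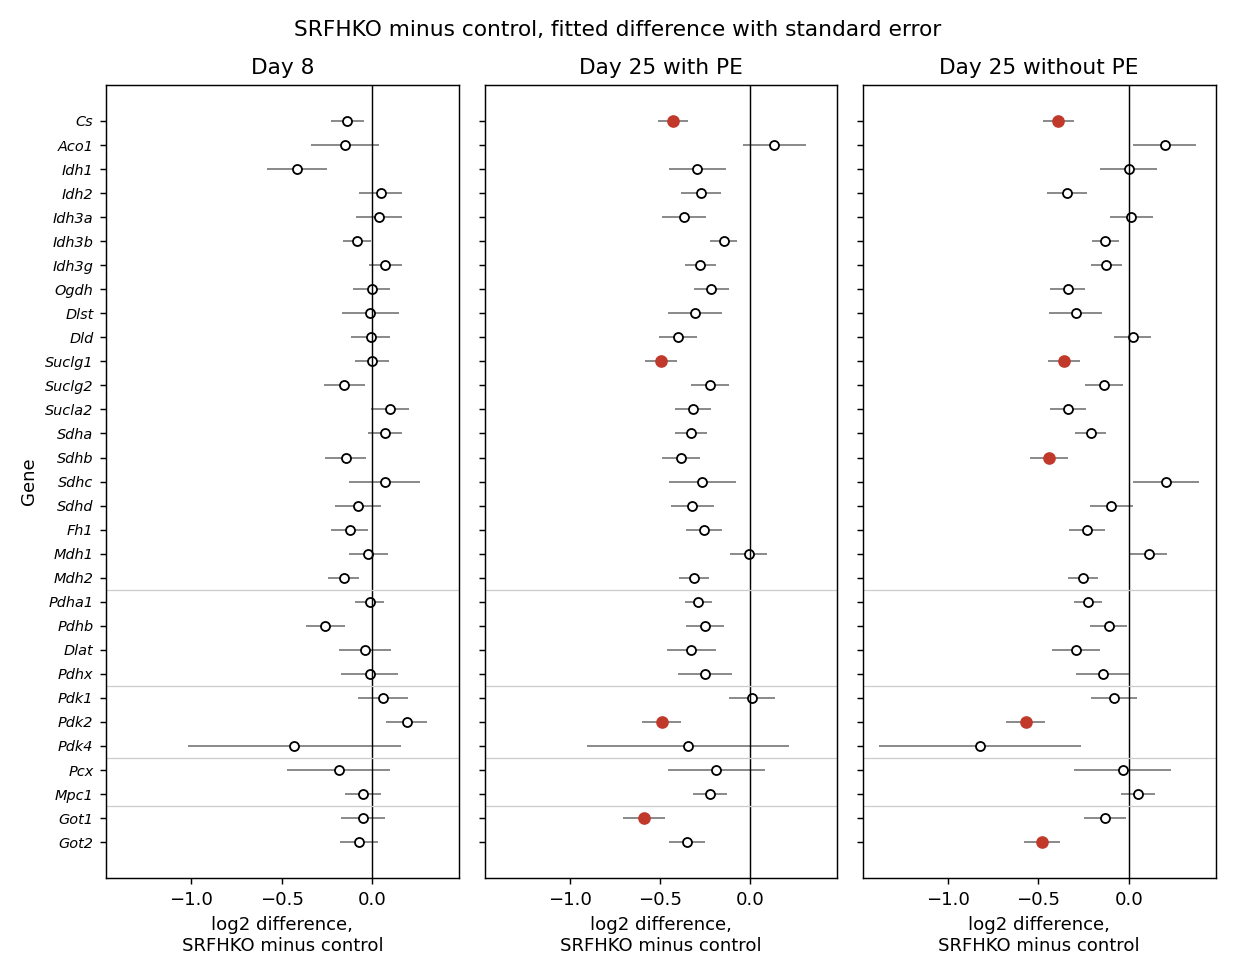
Fitted log2 difference (x axis, SRFHKO minus control) of each of the 31 members (y axis, grouped by role) at day 8, at day 25 with PE and at day 25 without PE; bars are standard errors and filled red points passed an adjusted p of 0.05. No member passed at day 8, 4 passed with PE and 5 without it, all of them below 0.

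In whole ventricle, fewer cells of a type and less RNA per cell cannot be told apart. The summed signal of the 16 cardiomyocyte markers was 105310 to 111990 in SRFHKO hearts given PE against 119820 to 140640 in control hearts given PE, and 106450 to 125810 against 134590 to 148300 without PE, with no overlap in either pair. The 16 markers had median differences of -0.22 and -0.23, and 2 fell in each comparison. These markers include genes of the sarcomere, and SRF is a transcription factor of muscle genes. Their sum therefore cannot tell fewer cardiomyocytes from a change of the marker genes themselves. The 12 endothelial markers summed to 8192 to 9386 in SRFHKO and 8505 to 10070 in control hearts with PE, and to 8957 to 9902 against 10089 to 10494 without PE. The 12 fibroblast markers overlapped in both pairs, at 9906 to 14549 in SRFHKO and 11105 to 11297 in control hearts with PE, and at 7386 to 10315 in SRFHKO and 7439 to 10791 in control hearts without PE. One endothelial marker fell without PE, and no marker of fibroblasts, macrophages, smooth muscle, adipocytes, skeletal muscle or erythroid cells passed the threshold in either comparison. Of these lists, 4 of 8 adipocyte, 2 of 9 skeletal muscle and 2 of 6 erythroid markers were above the limit on low signal, and of the rest all were. The ratio of the 3' to the 5' *Gapdh* control probe sets, a sign of RNA integrity, was 0.824 to 0.863 in SRFHKO and 0.846 to 0.900 in control hearts with PE, and 0.820 to 0.835 in SRFHKO and 0.868 to 0.945 in control hearts without PE. The same ratio for *Actb* overlapped in both pairs. It was 1.87 to 2.31 in SRFHKO and 1.75 to 2.02 in control hearts with PE, and 1.83 to 2.02 against 2.00 to 2.03 without PE. Array brightness and the cardiomyocyte sum were separated by genotype in both pairs, and the endothelial sum and the *Gapdh* ratio in the pair without PE. Separated too were 2 of the remaining sums, the 12 macrophage markers with PE, at 3351 to 3734 in SRFHKO and 3775 to 4297 in control hearts, and the 2 skeletal muscle markers without PE, at 26.4 to 39.3 in SRFHKO and 44.5 to 59.97 in control hearts. Their part in the members' differences was not tested beyond a fit with brightness as a covariate. In that fit *Suclg1* alone of the 31 members passed the threshold with PE, no member passed without PE, and the 9 differences called above all stayed below 0.

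Citrate synthase joins oxaloacetate and acetyl-CoA and opens the cycle. *Cs* had levels of 12.13, 12.12 and 12.21 in SRFHKO hearts given PE, against 12.62, 12.48 and 12.64 in control hearts given PE. *Cs* at day 25 without PE stood at 12.41, 12.30 and 12.39 in SRFHKO hearts and at 12.70, 12.76 and 12.82 in control hearts. *Cs* at day 8 stood at 12.33, 12.16, 12.41 and 12.27 in SRFHKO hearts and at 12.56 and 12.30 in control hearts. At day 25 every SRFHKO heart lay below every control heart of its treatment, whereas the groups overlapped at day 8. The difference was -0.43 ± 0.09 with PE (limma, standard error, adjusted p = 0.0136), which is 0.743 times control, and -0.39 ± 0.09 without PE (limma adjusted p = 0.0224). At day 8 it was -0.14 ± 0.09 (adjusted p = 0.707). A further probe set of *Cs* also fell at day 25 without PE, by 0.48 on the log2 scale (standard error 0.11, adjusted p = 0.0272 over all probe sets). The remaining *Cs* probe set did not pass there, and neither of them passed with PE. With all its probe sets averaged, *Cs* was not called without PE.

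Succinyl-CoA ligase, the step that makes a nucleoside triphosphate directly, has 1 shared alpha subunit and alternative beta subunits for ATP (*Sucla2*) and GTP (*Suclg2*). *Suclg1* had levels of 11.07, 11.18 and 11.24 in SRFHKO hearts given PE, against 11.65, 11.76 and 11.57 in control hearts given PE. *Suclg1* at day 25 without PE stood at 11.51, 11.47 and 11.48 in SRFHKO hearts and at 11.76, 11.89 and 11.88 in control hearts. *Suclg1* at day 8 stood at 11.62, 11.40, 11.64 and 11.54 in SRFHKO hearts and at 11.67 and 11.42 in control hearts. The hearts with both deletion and PE were the lowest of all 18, and the day 25 groups did not overlap by genotype with or without PE. *Suclg1* fell by 0.50 on the log2 scale with PE (standard error 0.09, limma adjusted p = 0.00836), to 0.709 times control, and by 0.36 without PE (standard error 0.09, adjusted p = 0.0381). At day 8 the difference was 0.00 ± 0.09. The ATP-forming subunit *Sucla2* differed by -0.32 ± 0.10 with PE and -0.34 ± 0.10 without it (adjusted p = 0.117 and 0.0791), and the GTP-forming *Suclg2* by -0.22 ± 0.11 and -0.14 ± 0.11. Neither beta subunit passed the threshold.

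Of the aconitase, isocitrate and 2-oxoglutarate steps, no member passed the threshold. *Dld*, the dihydrolipoamide dehydrogenase shared by the 2-oxoglutarate and pyruvate dehydrogenase complexes, came nearest. *Dld* had levels of 10.11, 10.30 and 10.09 in SRFHKO hearts given PE, against 10.64, 10.57 and 10.50 in control hearts given PE. *Dld* at day 25 without PE stood at 10.55, 10.45 and 10.52 in SRFHKO hearts and at 10.45, 10.60 and 10.41 in control hearts. *Dld* at day 8 stood at 10.66, 10.33, 10.68 and 10.44 in SRFHKO hearts and at 10.64 and 10.43 in control hearts. Only the PE pair was separated by genotype. The difference was -0.40 ± 0.10 with PE (limma adjusted p = 0.057) and 0.02 ± 0.10 without PE. *Ogdh*, the first enzyme of the 2-oxoglutarate complex, differed by -0.22 ± 0.10 with PE and -0.34 ± 0.10 without PE (limma adjusted p = 0.0713), and *Dlst*, its succinyltransferase, by -0.31 ± 0.15 and -0.29 ± 0.15. The 3 subunits of NAD-linked isocitrate dehydrogenase, *Idh3a*, *Idh3b* and *Idh3g*, had differences of -0.37, -0.15 and -0.28 with PE and 0.01, -0.13 and -0.12 without it. *Idh2*, the mitochondrial NADP-linked enzyme, differed by -0.27 ± 0.11 and -0.34 ± 0.11. Among the cytosolic enzymes, *Idh1* differed by -0.29 ± 0.16 and -0.00 ± 0.16, and the aconitase *Aco1* was above 0 in both, at 0.13 ± 0.18 and 0.20 ± 0.18 (adjusted p = 0.806 and 0.584).

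Succinate dehydrogenase is both a TCA enzyme and complex II of the respiratory chain. Its iron-sulfur subunit *Sdhb* passed the threshold without PE. *Sdhb* had levels of 12.46, 12.48 and 12.67 in SRFHKO hearts given PE, against 12.96, 12.77 and 13.04 in control hearts given PE. *Sdhb* at day 25 without PE stood at 12.80, 12.51 and 12.74 in SRFHKO hearts and at 13.13, 13.00 and 13.24 in control hearts. *Sdhb* at day 8 stood at 12.51, 12.56, 12.70 and 12.73 in SRFHKO hearts and at 12.90 and 12.64 in control hearts. The genotypes were separated in both day 25 pairs and overlapped at day 8. *Sdhb* fell by 0.44 on the log2 scale without PE (standard error 0.11, limma adjusted p = 0.0326) and differed by -0.39 ± 0.11 with PE (adjusted p = 0.0733).

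The flavoprotein subunit *Sdha* did not pass. *Sdha* had levels of 11.84, 11.83 and 11.59 in SRFHKO hearts given PE, against 12.14, 12.09 and 12.02 in control hearts given PE. *Sdha* at day 25 without PE stood at 12.13, 11.99 and 12.00 in SRFHKO hearts and at 12.21, 12.21 and 12.34 in control hearts. *Sdha* at day 8 stood at 11.86, 12.13, 12.09 and 11.99 in SRFHKO hearts and at 11.99 and 11.90 in control hearts. Its day 25 groups were separated by genotype with and without PE, by -0.33 ± 0.09 and -0.21 ± 0.09 (limma adjusted p = 0.068 and 0.206). Another *Sdha* probe set did fall with PE, by 0.41 on the log2 scale (standard error 0.08, adjusted p = 0.0219 over all probe sets). The remaining *Sdha* probe set above the limit on low signal passed in neither comparison. Of the membrane anchors, *Sdhd* had -0.32 ± 0.12 with PE and -0.10 ± 0.12 without it, and *Sdhc* had -0.27 ± 0.19 and 0.21 ± 0.19, none past the threshold.

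Fumarase and malate dehydrogenase complete the cycle. *Fh1* differed by -0.26 ± 0.10 with PE and -0.23 ± 0.10 without PE (limma adjusted p = 0.218 and 0.214). *Mdh2* had levels of 12.54, 12.50 and 12.75 in SRFHKO hearts given PE, against 12.90, 12.88 and 12.96 in control hearts given PE. *Mdh2* at day 25 without PE stood at 12.76, 12.79 and 12.92 in SRFHKO hearts and at 13.12, 13.03 and 13.07 in control hearts. *Mdh2* at day 8 stood at 12.58, 12.63, 12.69 and 12.67 in SRFHKO hearts and at 12.91 and 12.69 in control hearts. The SRFHKO hearts lay below the controls in both day 25 pairs. *Mdh2*, the mitochondrial malate dehydrogenase, differed by -0.31 ± 0.08 with PE (adjusted p = 0.0615) and -0.25 ± 0.08 without PE (adjusted p = 0.106). The other *Mdh2* probe set fell in both, by 0.45 with PE and 0.42 without PE on the log2 scale (adjusted p = 0.0198 over all probe sets in each). The cytosolic *Mdh1*, its partner in the shuttle, differed by -0.01 ± 0.10 and 0.11 ± 0.10, with overlapping groups.

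**Figure D2:**
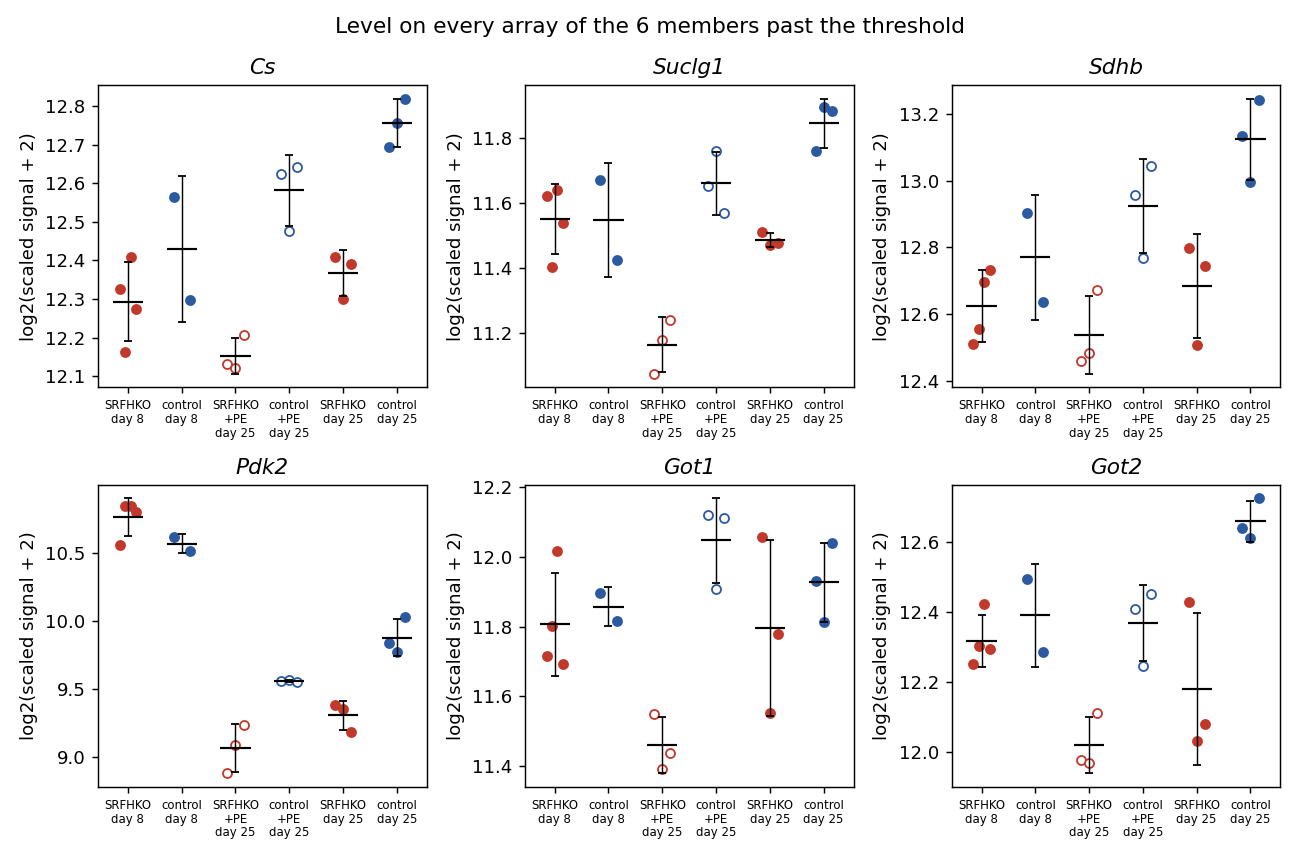
Level of the 6 members past the threshold in any comparison (y axis, log2 of scaled signal plus 2) in each of the 6 groups (x axis); points are single arrays, open for PE, and lines give the group mean with the standard deviation. The 3 SRFHKO hearts given PE lie below the 3 control hearts given PE in all 6 panels.

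The pyruvate dehydrogenase complex decarboxylates pyruvate to acetyl-CoA. None of its 4 core genes passed the threshold, and all 4 were below 0 at day 25 with and without PE. *Pdha1* had levels of 12.14, 12.17 and 12.17 in SRFHKO hearts given PE, against 12.44, 12.36 and 12.55 in control hearts given PE. *Pdha1* at day 25 without PE stood at 12.45, 12.26 and 12.36 in SRFHKO hearts and at 12.63, 12.48 and 12.63 in control hearts. *Pdha1* at day 8 stood at 12.24, 12.26, 12.28 and 12.24 in SRFHKO hearts and at 12.32 and 12.21 in control hearts. The genotypes did not overlap at day 25. *Pdha1*, the catalytic alpha subunit, differed by -0.29 ± 0.08 with PE (limma adjusted p = 0.0623) and -0.23 ± 0.08 without PE (adjusted p = 0.117), although another of its probe sets gave 0.23 without PE. The beta subunit *Pdhb* differed by -0.25 ± 0.10 and -0.11 ± 0.10, the acetyltransferase *Dlat* by -0.33 ± 0.14 and -0.29 ± 0.14, and the binding protein *Pdhx* by -0.25 ± 0.15 and -0.14 ± 0.15.

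Of the 3 kinases measured, which inactivate the complex, *Pdk2* passed the threshold. *Pdk2* had levels of 8.88, 9.09 and 9.23 in SRFHKO hearts given PE, against 9.56, 9.57 and 9.55 in control hearts given PE. *Pdk2* at day 25 without PE stood at 9.38, 9.35 and 9.18 in SRFHKO hearts and at 9.84, 9.77 and 10.03 in control hearts. *Pdk2* at day 8 stood at 10.55, 10.84, 10.85 and 10.80 in SRFHKO hearts and at 10.62 and 10.52 in control hearts. Every SRFHKO heart lay below every control heart of its treatment at day 25, while at day 8 the groups overlapped and all 6 hearts stood above all 12 hearts of day 25. *Pdk2* fell by 0.57 on the log2 scale without PE (standard error 0.11, limma adjusted p = 0.0103), to 0.673 times control, and by 0.49 with PE (standard error 0.11, adjusted p = 0.0247). At day 8 the difference was 0.19 ± 0.11 (adjusted p = 0.647). The day 8 arrays were also brighter before scaling (110 to 148, against 46.6 to 85.4 at day 25), so that day and brightness cannot be told apart.

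*Pdk4*, the kinase induced by fasting and fatty acids, varied most between hearts of 1 group. *Pdk4* had levels of 9.28, 10.91 and 11.24 in SRFHKO hearts given PE, against 11.38, 10.19 and 10.90 in control hearts given PE. *Pdk4* at day 25 without PE stood at 10.19, 11.92 and 10.74 in SRFHKO hearts and at 10.63, 12.41 and 12.29 in control hearts. *Pdk4* at day 8 stood at 11.45, 10.58, 9.75 and 9.96 in SRFHKO hearts and at 11.23 and 10.49 in control hearts. Every pair of groups overlapped, and its standard deviation within groups was 0.84. Its difference was -0.83 ± 0.56 without PE (limma adjusted p = 0.453, 95% interval -2.0 to 0.35) and -0.35 ± 0.56 with PE (95% interval -1.52 to 0.826). Differences up to these bounds, on either side of 0, are allowed by the data. *Pdk1* differed by 0.01 ± 0.13 with PE and -0.08 ± 0.13 without PE.

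Of the routes that bring carbon in, *Mpc1*, a subunit of the pyruvate carrier, differed by -0.22 ± 0.09 with PE (limma adjusted p = 0.266, groups separated) and 0.05 ± 0.09 without PE. Pyruvate carboxylase, *Pcx*, which refills oxaloacetate, was the dimmest member (5.55 to 6.88 over the 18 arrays) and differed by -0.19 ± 0.27 and -0.03 ± 0.27.

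The aspartate aminotransferases each passed the threshold in a different comparison. *Got1* had levels of 11.55, 11.39 and 11.44 in SRFHKO hearts given PE, against 12.12, 11.91 and 12.11 in control hearts given PE. *Got1* at day 25 without PE stood at 12.06, 11.55 and 11.78 in SRFHKO hearts and at 11.93, 11.81 and 12.04 in control hearts. *Got1* at day 8 stood at 11.72, 11.80, 12.02 and 11.69 in SRFHKO hearts and at 11.90 and 11.82 in control hearts. Only the PE pair was separated by genotype. *Got1*, the cytosolic enzyme, fell by 0.59 on the log2 scale with PE (standard error 0.12, limma adjusted p = 0.0132), to 0.666 times control, and differed by -0.13 ± 0.12 without PE (adjusted p = 0.581). The difference between these effects did not pass the test of the interaction (-0.46 ± 0.16, adjusted p = 0.577).

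The mitochondrial enzyme, *Got2*, passed without PE. *Got2* had levels of 11.98, 11.97 and 12.11 in SRFHKO hearts given PE, against 12.41, 12.25 and 12.45 in control hearts given PE. *Got2* at day 25 without PE stood at 12.43, 12.03 and 12.08 in SRFHKO hearts and at 12.64, 12.61 and 12.72 in control hearts. *Got2* at day 8 stood at 12.25, 12.30, 12.42 and 12.30 in SRFHKO hearts and at 12.49 and 12.29 in control hearts. The genotypes were separated in both day 25 pairs. *Got2* fell by 0.48 on the log2 scale without PE (standard error 0.10, limma adjusted p = 0.0178) and differed by -0.35 ± 0.10 with PE (adjusted p = 0.0857), and its interaction was 0.13 ± 0.14 (adjusted p = 0.871). Its further probe sets passed in neither comparison, and with all of them averaged *Got2* was not called without PE.

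**Figure D3:**
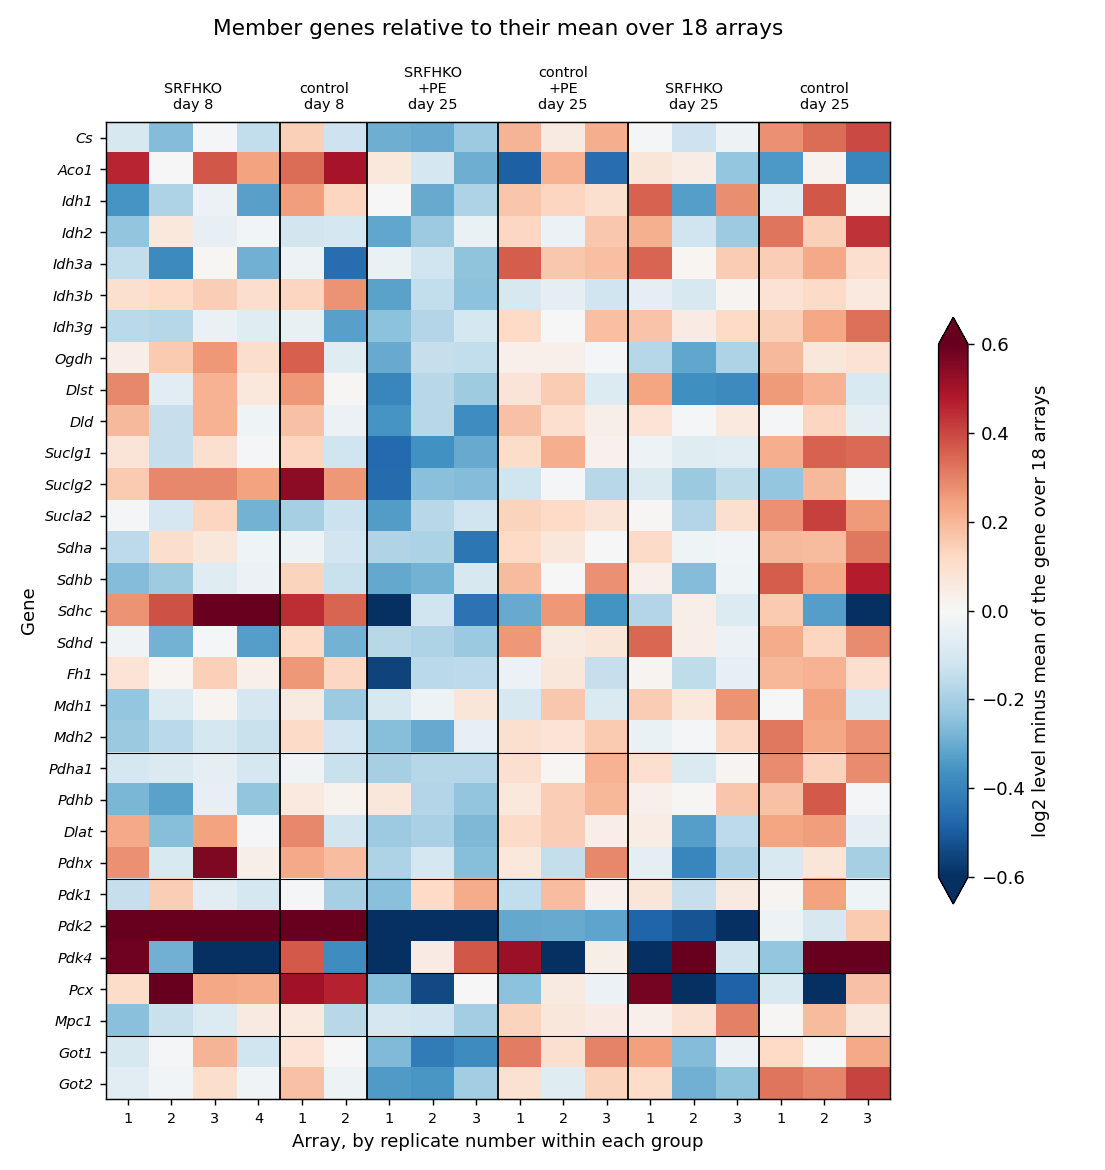
Level of each member (rows, by role) on each of the 18 arrays (columns, by group) minus its mean over the arrays, on the log2 scale, with colour saturated beyond 0.6 in either direction. Most members are below their mean (blue) in the SRFHKO hearts given PE, and Pdk2 is high in every day 8 heart.

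At day 8 no member passed the threshold (limma, 0.0634% of all genes called in either direction), and 2 of 31 had an unadjusted p under 0.05 on the lower side (all genes: 4.85%) and none on the higher side. These were *Idh1* (-0.42 ± 0.17, adjusted p = 0.464) and *Pdhb* (-0.26 ± 0.11, adjusted p = 0.49), and they were also the 2 members whose groups did not overlap (all genes: 9.67%). *Idh1* had levels of 8.75, 8.92, 9.07 and 8.78 in SRFHKO hearts and 9.36 and 9.24 in control hearts. The median difference was -0.04 for the members and -0.01 over all genes, with 22 of 31 below 0 (all genes: 51.7%). The 1261 brightest genes also had a median of -0.04, with 59.8% below 0. Of them, 10.9% had an unadjusted p under 0.05 on the lower side. With quantile normalisation 15 of 31 members were below 0. The members' median, relative to each gene's mean over the arrays, was 0.13 in control replicate 1 and -0.11 in control replicate 2. Without replicate 1 the median difference was 0.05, and without replicate 2 it was -0.16. Signs of RNA quality and other cell types also separated these groups. The *Gapdh* ratio was 0.850 to 0.936 in SRFHKO and 1.01 to 1.02 in control hearts, and the scaled 18S signal 204 to 363 in SRFHKO and 899 to 1772 in control hearts. The *Actb* ratio overlapped, at 1.52 to 2.12 in SRFHKO and 2.07 to 2.52 in control hearts. The fibroblast markers summed to 6800 to 9771 in SRFHKO and 9964 to 14616 in control hearts, and the 2 skeletal muscle markers to 14.5 to 31.96 in SRFHKO and 33.2 to 37.3 in control hearts. Their part in the day 8 values was not tested.

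PE alone moved no member past the threshold in control hearts, where 0.0397% of all genes were called in either direction, and 3 members had an unadjusted p under 0.05, all lower (all genes: 6.15%). They were *Pdk2* (-0.32 ± 0.11, adjusted p = 0.281), *Got2* (-0.29 ± 0.10, adjusted p = 0.289) and *Idh3b* (-0.18 ± 0.07, adjusted p = 0.407). In SRFHKO hearts PE also gave no call (all genes: 0.262%), with 14 members at an unadjusted p under 0.05, all lower (all genes: 5.24%). *Suclg1* was -0.32 ± 0.09 there (limma adjusted p = 0.138), *Idh3g* -0.29 ± 0.09 (0.17) and *Dld* -0.34 ± 0.10 (0.18). Of the 1261 brightest genes, 14.7% had an unadjusted p under 0.05 on the lower side in SRFHKO hearts and 6.5% in control hearts. With quantile normalisation 9 members had such a p in SRFHKO hearts and 3 in control hearts. The median over members was -0.08 in control hearts and -0.20 in SRFHKO hearts, against -0.03 and -0.01 over all genes. PE left 24 of 31 members below 0 in control hearts (all genes: 55.0%), of which 9 had groups that did not overlap (8.68%), and 28 of 31 in SRFHKO hearts (51.0%), of which 14 did not overlap (8.40%). The same hearts enter more than 1 of these comparisons. Of the 12 fibroblast markers, 1 rose with PE in SRFHKO hearts (median 0.22), with sums of 9906 to 14549 with PE and 7386 to 10315 without it. In control hearts none passed (median 0.13), and the sums were separated, at 11105 to 11297 with PE and 7439 to 10791 without it. The endothelial sum was also separated by PE in control hearts (8505 to 10070 with PE and 10089 to 10494 without it), as was that of the 2 skeletal muscle markers (24.5 to 42.3 with PE and 44.5 to 59.97 without it). Their part in the PE values was not tested.

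The test of whether PE acted differently by genotype called no member (all genes: 0.0238%), and 3 had an unadjusted p under 0.05, all on the lower side (all genes: 3.10%). These were *Dld* (-0.42 ± 0.15, adjusted p = 0.565), *Got1* and *Idh3a* (-0.38 ± 0.17, adjusted p = 0.635). For *Cs* the interaction was -0.04 with a 95% interval of -0.29 to 0.21, and for *Suclg1* -0.14 with an interval of -0.40 to 0.13, so that interactions up to these bounds are allowed by the data. The test of whether the deletion effect differed between day 25 and day 8 also called none of the members or of all genes (0.00%), with 7 members at an unadjusted p under 0.05 on the lower side (all genes: 6.05%). The smallest p was that of *Pdk2* (-0.77 ± 0.16, unadjusted p = 0.000116, limma adjusted p = 0.122), whose difference was above 0 at day 8 and below 0 at day 25.

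Ordering the 4 groups of day 25 by their mean, the SRFHKO hearts given PE were lowest in 27 of 31 members (87.1%, against 29.2% of all genes) and the untreated control hearts highest in 21 (67.7%, against 35.7%). Both held in 19 members (61.3%, against 16.2% of all genes), among them *Cs*, *Suclg1*, *Sdhb*, *Pdk2* and *Got2*. The steps between PE and no PE within a genotype passed the threshold for no member. Array brightness ran the other way. Before scaling, the trimmed means averaged 79.9 in SRFHKO hearts given PE and 75.6 in SRFHKO hearts without it. In control hearts they averaged 65.1 with PE and 57.3 without it. The order of the groups and their brightness therefore cannot be told apart. Per array, the members' median relative to each gene's mean was -0.26, -0.17 and -0.21 in SRFHKO hearts given PE, against 0.10, 0.07 and 0.04 in control hearts given PE. Without PE it was 0.04, -0.12 and -0.03 in SRFHKO hearts, against 0.16, 0.21 and 0.10 in control hearts. The groups of each pair did not overlap.

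**Figure D4:**
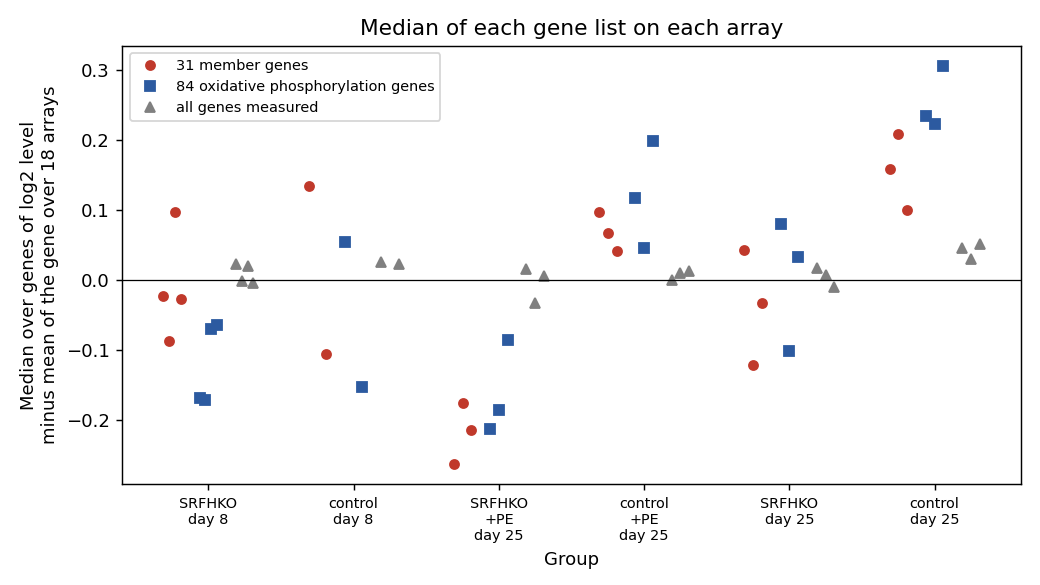
Median over each gene list of the log2 level minus the gene's mean over 18 arrays (y axis), 1 point per array in each group (x axis), for the 31 members, 84 oxidative phosphorylation genes and all 12610 genes. The members' points of the SRFHKO hearts given PE (-0.26 to -0.17) lie below the members' points of every other array, and all genes stay near 0.

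Of 34 further genes of pyruvate, malate and citrate handling, 31 were above the limit on low signal, and 1 passed the threshold in any comparison: *Acss1*, the mitochondrial acetyl-CoA synthetase, fell by 0.51 on the log2 scale under PE (standard error 0.10, limma adjusted p = 0.0132). Their medians were -0.20 with PE and -0.15 without it. Among 84 genes of oxidative phosphorylation, taken by the letters that begin their symbols, 15 fell and none rose with PE (median -0.29, all genes: 0.944% lower). Without PE 11 fell and 1 rose (median -0.26, all genes: 1.21% lower and 2.48% in either direction). The letters also take in assembly factors such as *Ndufaf1*, which fell with PE. Of the complex I subunits, *Ndufa6* fell by 0.49 with PE (standard error 0.08, adjusted p = 0.00479) and by 0.31 without PE (standard error 0.08, adjusted p = 0.0467). No test of the members against these genes was run.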

How the data were processed

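Gene expression was read from a deposited table of the authors' linear intensity for each of 45101 probe sets on each of 18 arrays. GCOS, Affymetrix software, made the intensity, per the submitters' processing notes; no source used here states its version, signal algorithm or scaling. Deposited arrays differed in level (2% trimmed means of 46.6 to 148), so each was scaled to 90.6, a pseudocount of 2 was added and log2 was taken. Fold changes of dim genes are understated on that scale. The 64 control probe sets were dropped, as were probe sets below the 40th percentile of mean level (log2 of 3.58), leaving 27000. Names were taken from the platform annotation (34958 probe sets with 1 symbol, 932 with several, 9211 with none) and were updated by gene ID with RefSeq names of GRCm38.p6. Each of 12610 genes was read from its probe set of highest mean, and *Aco1*, *Mdh1* and *Dlat* thereby from _x_at probe sets, which can bind related transcripts.

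With limma 3.58.1 in R 4.3.3 (with data.table, version 1.17.8), 1 linear model held the 6 group means over all 18 arrays, moderated by eBayes with its trend on intensity. The 7 contrasts tested had two-sided p-values adjusted by Benjamini-Hochberg over all genes, with a threshold of 0.05, and intervals are 95%. An exact permutation test of 3 hearts against 3 cannot give a p below 0.1. Simulated on the day 25 comparison without PE, 200 of 12610 genes were changed, of which it recovered 11% at a log2 change of 0.5 and 63% at a log2 change of 1, with 7 false among 81 calls. These genes were drawn from all genes, whose median standard deviation within groups was 0.251, against 0.126 for the members. The rates are therefore not those of the members. The number of arrays limits the precision. Alternatives were quantile or no scaling, other pseudocounts and filters, the mean of all probe sets of a gene, _x_at probe sets last, the compared groups alone, no trend, array brightness as a covariate, a replicate block and leaving out each heart.

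The titles call the replicates biological. Same-numbered hearts were not treated as pairs, and the correlations of their deviations from the group means lay between -0.09 and 0.09. In every day 25 group, however, replicate 2 was the brightest array before scaling and replicate 3 the dimmest. The *Gapdh* ratio was lowest in replicate 2 of each of these groups. No source used here says whether same-numbered hearts share a batch. No pair of arrays held identical values. The members, the pathway and marker lists and the rule for the genes given on every array were chosen with earlier results of these data known. That rule took each member past the threshold in any contrast, then the members of smallest p up to 10.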

Additional observations from a re-analysis of the deposited data

Results flagged for a closer look

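Among the 31 members, 1 value stood apart in the group of 4 SRFHKO hearts at day 8, the only group large enough to examine. *Pdk2* was lowest in replicate 1, at 10.6, with the other 3 hearts at 10.8, and the gap took up 0.832 of the group's range. Chance alone flags about 1 in 20 such groups, so 1 of 31 is no more than that. The *Pdk2* level of that heart lay within the range of the 2 day 8 controls (10.5 and 10.6).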

How the results depend on the processing

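Every count of calls and median was recomputed under 12 other settings and without each heart in turn. At day 25 without PE, where 5 members were called, the count was 2 with quantile normalisation, 2 with no filter on low signal, 1 without the intensity trend, and 0 with no scaling, with the 2 groups fitted alone or with array brightness as a covariate. With PE, where 4 were called, it was 7 with a filter at the 60th percentile and 7 with the replicate number as a block, 1 without the trend and 1 with brightness as a covariate, and 0 with no scaling. The replicate block is a check only, as no source used here says that the numbers pair the hearts. It changed no other count by over 1.5 times, and without PE it left *Suclg1* at a limma adjusted p of 0.0512. Without scaling the members' medians became 0.27 at day 25 without PE, 0.0156 with PE, 0.10 for PE in control hearts, -0.11 for PE in SRFHKO hearts, -0.17 for the PE interaction and 0.27 for the day interaction, and *Cs* and *Suclg1* without PE became 0.0243 and 0.0548. All genes then shifted by 0.35 without PE and 0.29 with PE, with 1040 genes called higher and 21 lower without PE (161 and 152 after scaling). Relative to that shift the members were below all genes in both. Quantile normalisation gave a median of -0.20 with PE. Without single hearts the counts ranged from 0 to 6 without PE, from 1 to 5 with PE and stayed at 0 in the other contrasts. The medians ranged from -0.16 to 0.0463 at day 8, from -0.26 to -0.10 at day 25 without PE, from -0.33 to -0.25 with PE, from -0.13 to -0.07 for PE in control hearts, from -0.24 to -0.15 for PE in SRFHKO hearts, from -0.12 to -0.02 for the PE interaction and from -0.24 to -0.047 for the day interaction. The cause of these changes was not tested. *Suclg1* with PE passed in 11 of the 12 other settings, the exception being no scaling.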
